A study of Homo sapiens with 6 samples.

Results

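The genes of the Sm ring and of the proteins specific to U1 snRNP were examined in OVCA433 cells, an established line derived from a human ovarian carcinoma. The rows were picked by gene symbol. The 10 members were SNRPB, SNRPD1, SNRPD2, SNRPD3, SNRPE, SNRPF and SNRPG, which encode the 7 proteins of the Sm ring, and SNRNP70, SNRPA and SNRPC, which encode the 3 proteins found only in U1 snRNP. All 10 had a row among the 11957 rows of the count table.

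Small nuclear ribonucleoproteins (snRNPs) are the building blocks of the spliceosome, and each consists of a small nuclear RNA and a set of proteins. The Sm proteins close as a ring around a short uridine-rich site of the U1, U2, U4 and U5 RNAs, and the SMN complex loads them there in the cytoplasm. Before assembly they travel as the subcomplexes SmD1 with SmD2, SmE with SmF and SmG, and SmB with SmD3. U1 snRNP recognises the 5′ splice site, while U2AF binds ahead of the 3′ splice site and helps to recruit U2 snRNP.

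Poly(A)-enriched, strand-specific RNA sequencing was done on 3 libraries labelled U2AF2 SI and 3 labelled U2AF2 SINC, all from the same cell line. The labels expand neither abbreviation and name no agent, dose, time or clone, so both groups are called by their labels. Fold changes are SI-labelled minus SINC-labelled libraries throughout. The labels do not say that replicates were grown as separate cultures, so each p-value reflects the spread among these 6 libraries, and that spread may be technical. Library totals ran from 43333966 to 48976810 counts. Levels are CPM, the counts of a gene relative to the total of its library, after TMM scaling, and they cannot separate fewer cells of a kind from less RNA per cell. KRT8 and KRT18, epithelial keratins, were at 42.6 ± 9.80 and 290 ± 76.4 CPM in SI-labelled and 43.3 ± 2.66 and 329 ± 72.3 CPM in SINC-labelled libraries (SD, n = 3 each). PAX8, MUC16, KRT7, EPCAM, WFDC2 and MSLN, other markers of ovarian carcinoma, were not analysed here.

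U2AF2, the gene the groups are named for, had 285, 345 and 373 CPM in SI-labelled libraries, against 252, 284 and 205 CPM in SINC-labelled libraries. The groups did not overlap, and the lower level was in the SINC-labelled libraries. The count columns headed N were tied to the SI label and those headed S to the SINC label by the sample descriptions. Whether the labels or columns were exchanged was not tested, and an exchange would turn the sign of every fold change given here. The log2 fold change was 0.44 ± 0.19 (SE) in edgeR's quasi-likelihood test, with a Benjamini-Hochberg adjusted p of 0.653 over all rows. U2AF1, which encodes the smaller U2AF subunit, stood at 59.6 ± 12.01 CPM in SI-labelled and 73.1 ± 14.3 CPM in SINC-labelled libraries (SD, n = 3 each).

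The Sm ring genes lay lower in SI-labelled libraries, and the median of the U1 genes lay near the median of all rows. The contrast between ring and U1 genes was not tested. All 7 ring genes had a log2 fold change below 0, from -0.83 for SNRPG to -0.37 for SNRPB, with a median of -0.58. Of all rows, 45.7% lay below 0, and the median over all rows was 0.04. The U1 genes ran from -0.26 for SNRPC to 0.02 for SNRPA, with a median of -0.01. No member passed at an adjusted p of 0.05 over all rows in edgeR, where 0.00836% of rows did. At an unadjusted p under 0.05 there were 5 members, all of them ring genes and all lower. Of all rows, 7.37% were at that level, 4.22% lower and 3.15% higher. The groups did not overlap for SNRPD1, SNRPD2, SNRPD3 and SNRPE, again lower in each case, against 13% of all rows without overlap, 5.68% lower and 7.36% higher. A 2-sided exact permutation test gave p = 0.1 for each of these 4, which is the lower limit of this test with 3 libraries in each group. Adding the CPM of the 7 ring genes gave 1606, 1337 and 2084 in SI-labelled libraries, against 2836, 2835 and 2132 in SINC-labelled libraries.

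**Figure D1:**
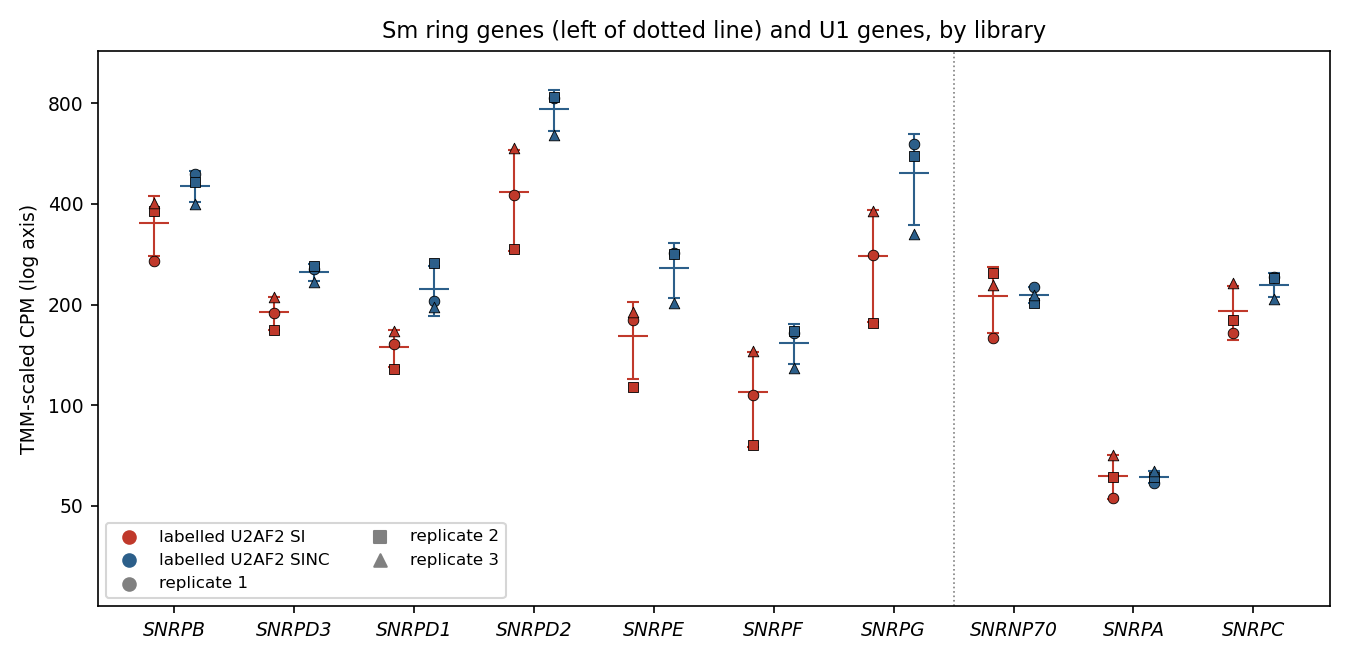
Level of each Sm ring gene (left of the dotted line) and U1 gene in TMM-scaled CPM on a log axis. Symbols are single libraries, horizontal bars the mean and whiskers the SD over 3 libraries. The SNRPD2 symbols sit at 294 to 587 CPM in SI-labelled and 646 to 834 CPM in SINC-labelled libraries, whereas the SNRNP70 symbols overlap.

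Of the SmD1 and SmD2 pair, SNRPD2 showed one of the larger differences. SmD2 binds SmD1 and SmF in the ring. SNRPD2 had 426, 294 and 587 CPM in SI-labelled libraries, against 828, 834 and 646 CPM in SINC-labelled libraries. Every SI-labelled library was below every SINC-labelled one, and replicate 2 labelled SI was the lowest of all. Its log2 fold change of -0.82 ± 0.25 (SE) had a 95% interval from -1.36 to -0.28 (edgeR adjusted p = 0.653). SNRPD2 had an unadjusted p under 0.05 in each of the 6 fits that left out 1 library. DESeq2, an alternative test, gave SNRPD2 an adjusted p of 0.0422 among the 1062 rows that its independent filtering kept, and 0.209 without that filtering. SNRPD1 encodes SmD1, whose arginine- and glycine-rich tail is methylated before the protein is bound by SMN. It had 152, 128 and 166 CPM in SI-labelled libraries, against 205, 265 and 196 CPM in SINC-labelled libraries. The groups were separate by a narrower margin, since the highest SI-labelled library was at 166 CPM and the lowest SINC-labelled one at 196 CPM. The log2 fold change of SNRPD1 was -0.58 ± 0.19 (SE).

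SNRPE, SNRPF and SNRPG encode the trimer of SmE, SmF and SmG, which Gemin2 of the SMN complex holds together with SmD1 and SmD2. SNRPG had 282, 176 and 381 CPM in SI-labelled libraries, against 606, 558 and 324 CPM in SINC-labelled libraries. Replicate 3 of the SI-labelled libraries was above replicate 3 of the SINC-labelled ones, so the groups overlapped although the difference in means was large (log2 fold change -0.83 ± 0.30 SE, edgeR adjusted p = 0.653). SNRPE had 180, 113 and 191 CPM in SI-labelled libraries, against 285, 284 and 202 CPM in SINC-labelled libraries. These did not overlap, with 191 CPM as the highest SI-labelled and 202 CPM as the lowest SINC-labelled value. The log2 fold change of SNRPE was -0.67 ± 0.23 (SE). SNRPF had 107, 76.1 and 146 CPM in SI-labelled libraries, against 164, 167 and 129 CPM in SINC-labelled libraries. It overlapped between the groups through the 2 libraries numbered 3, and its log2 fold change was -0.49 ± 0.23 (SE), with an unadjusted p of 0.0585 in edgeR's quasi-likelihood fit. Without replicate 2 labelled SI the value for SNRPF was -0.27, and without replicate 3 labelled SI it was -0.75.

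SNRPB and SNRPD3 encode the pair of SmB and SmD3 and showed the smaller differences of the ring. SNRPB makes SmB and SmB′ by alternative splicing. It had 270, 381 and 402 CPM in SI-labelled libraries, against 493, 467 and 401 CPM in SINC-labelled libraries. The groups met at replicate 3, with 402 CPM in the SI-labelled and 401 CPM in the SINC-labelled library, and the log2 fold change was -0.37 ± 0.20 (SE). Without replicate 1 labelled SI it was -0.22. SNRPD3 had 189, 168 and 211 CPM in SI-labelled libraries, against 255, 260 and 234 CPM in SINC-labelled libraries. It had the tightest spread of the ring genes, with a coefficient of variation of 11.4% in SI-labelled and 5.62% in SINC-labelled libraries, and the groups did not overlap (log2 fold change -0.40 ± 0.17 SE). SNRPN, which encodes SmN, a close relative of SmB best known from neurons, was at 130 ± 21.9 CPM in SI-labelled and 150.2 ± 17.1 CPM in SINC-labelled libraries (SD, n = 3 each). Its log2 fold change was -0.21 ± 0.18 (SE).

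The U1 genes had unadjusted p-values above 0.05, and their 95% intervals include 0. SNRNP70 encodes U1-70K, which contacts stem loop I of U1 RNA. It had 159, 248 and 228 CPM in SI-labelled libraries, against 226, 202 and 213 CPM in SINC-labelled libraries. The SI-labelled libraries spread on both sides of the SINC-labelled ones, and the log2 fold change was -0.01, with a 95% interval of -0.44 to 0.41. SNRPA encodes the U1 protein A, which binds stem loop II. It had 52.8, 60.7 and 71.1 CPM in SI-labelled libraries, against 58.3, 60.8 and 63.5 CPM in SINC-labelled libraries, with a log2 fold change of 0.02 and a 95% interval of -0.37 to 0.40. SNRPC encodes the U1 protein C, a zinc finger protein at the 5′ splice site. It had 165, 179 and 232 CPM in SI-labelled libraries, against 241, 240.3 and 207 CPM in SINC-labelled libraries, with a log2 fold change of -0.26 and a 95% interval of -0.66 to 0.15. The small values of SNRNP70 and SNRPA changed sign with the scaling or with the library left out, and SNRPC lay at 0.03 once a trend on length and GC content was removed, so no direction is given for these 3 genes.

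**Figure D2:**
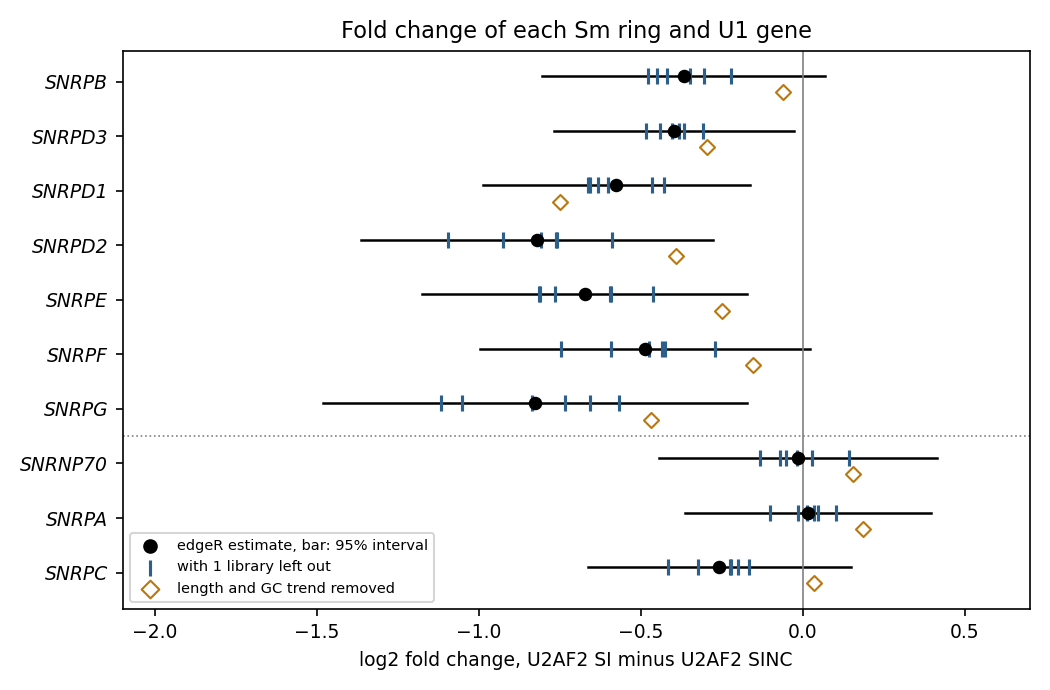
Log2 fold change of each gene (x axis, SI-labelled minus SINC-labelled), with the 95% interval of the edgeR fit as a bar, the 6 fits that left out 1 library as ticks, and the fit with a transcript length and GC trend removed as an open diamond. All diamonds of the Sm ring genes lie below 0, and for SNRPD2 the diamond is at -0.39 against -0.82 for the filled point.

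The libraries contributed unequally. Replicate 2 labelled SI was the lowest of the 6 libraries for 6 of the 7 ring genes, and replicate 1 labelled SI was the lowest for SNRPB and for all 3 U1 genes. The highest library was replicate 1 labelled SINC for 3 ring genes and replicate 2 labelled SINC for the other 4. On the log2 scale, the median deviation of the ring genes from their 6-library mean was -0.25, -0.74 and 0.03 in SI-labelled libraries, against 0.37, 0.51 and 0.03 in SINC-labelled libraries. The 2 libraries numbered 3 thus had nearly the same ring level, with SNRPD1 lower by 0.24 and SNRPG higher by 0.23 in the SI-labelled one. Without replicate 2 labelled SI, 2 members remained at an unadjusted p under 0.05 (SNRPD1 and SNRPD2) beside 6.85% of all rows in that fit, and the ring median was -0.46. Without replicate 1 labelled SINC there were 3 such members beside 3.43% of all rows, and the ring median was -0.59. Without replicate 2 labelled SINC there were 2 beside 3.21% of all rows, and the ring median was -0.43. Without replicate 3 labelled SI or replicate 3 labelled SINC there were 6, beside 6.57% and 14.4% of all rows. Omitting replicate 1 labelled SI left 4 such members, beside 6.36% of all rows, and a ring median of -0.60.

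Libraries also differed along transcript length, and most ring genes have short transcripts. In the GENCODE 29 annotation the longest protein-coding transcripts were 901 nt for SNRPD2, 942 nt for SNRPE, 1093 nt for SNRPG, 1154 nt for SNRPB, 1389 nt for SNRPF, 1763 nt for SNRPD3 and 4909 nt for SNRPD1. Those of SNRPC, SNRNP70 and SNRPA were 1054, 1603 and 1621 nt. Of the 10 members, 6 were among the 1133 rows with the shortest transcripts, SNRPC among them. The 1133 were taken from 11327 rows with a known length. Those 1133 rows had a median deviation of -0.38, -0.11 and -0.05 in SI-labelled libraries, against 0.32, 0.31 and -0.07 in SINC-labelled libraries. After removal, within each library, of a trend on length and then GC content, all 7 ring genes still had negative values and their median was -0.30, while the U1 median was 0.16. SNRPD1 then stood at -0.75, SNRPG at -0.47, SNRPD2 at -0.39, SNRPD3 at -0.30, SNRPE at -0.25, SNRPF at -0.16 and SNRPB at -0.06. SNRPD1 thus moved away from 0, from -0.58, while the other ring genes moved toward 0. Its value rests on the annotated 4909 nt, which may not be the transcript these cells make. In this fit on the longest transcripts, SNRPD1 was the 1 member left at an unadjusted p under 0.05, beside 7.59% of all rows. With the trend taken on principal transcripts, SNRPG was at -0.27. There SNRPD1 and SNRPD3 had an unadjusted p under 0.05, beside 7.47% of all rows. Of the ring genes only SNRPG has a principal transcript of another length, so SNRPD1 rests on the same 4909 nt there. The part of transcript length in the ring differences was not tested further.

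**Figure D3:**
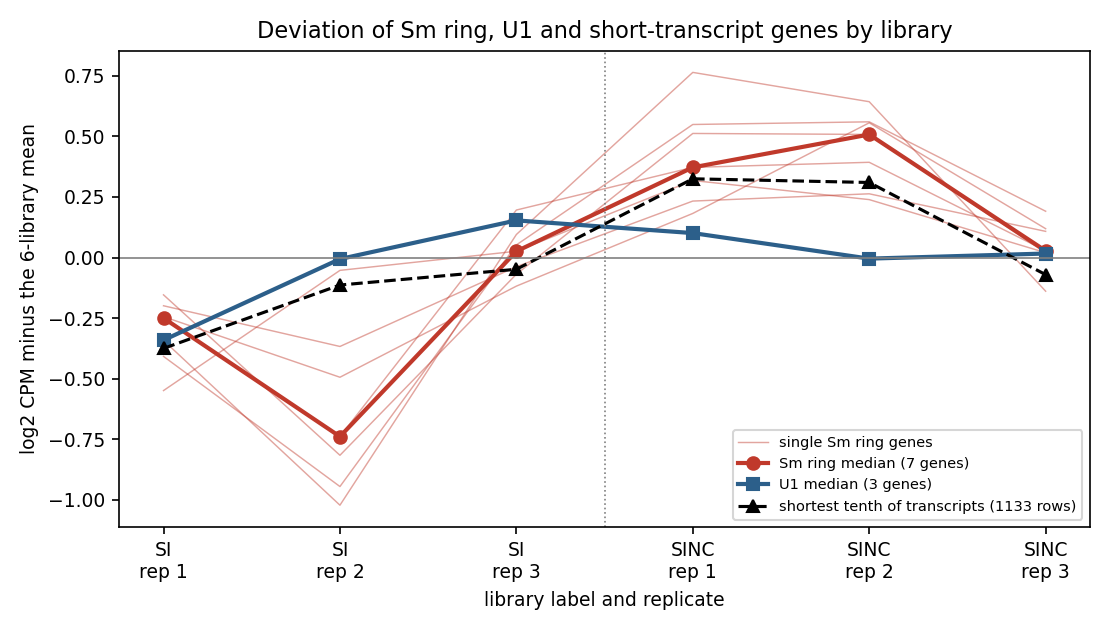
Deviation of log2 CPM from the 6-library mean (y axis) in each library (x axis) for single Sm ring genes (thin lines), the Sm ring median, the U1 median and the median of the 1133 rows with the shortest transcripts. The ring median is lowest in replicate 2 labelled SI at -0.74, the short transcripts are lowest in replicate 1 labelled SI at -0.38, and both libraries numbered 3 lie near 0.

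The make-up of the ring counts, which does not depend on library scaling, also set replicate 2 labelled SI apart. SNRPB took 28.5% of the counts of the 7 ring genes in that library and 16.8% and 19.3% in replicates 1 and 3 labelled SI, against 17.4%, 16.5% and 18.8% in SINC-labelled libraries. SNRPG took 17.5%, 13.2% and 18.3% in SI-labelled libraries, against 21.4%, 19.7% and 15.2% in SINC-labelled libraries. SNRPD2 was the 1 ring gene whose share did not overlap, at 26.6%, 21.99% and 28.1% in SI-labelled libraries, against 29.2%, 29.4% and 30.3% in SINC-labelled libraries. Of 5 ratios of counts chosen after values were seen, 4 overlapped between the groups and that of SNRPD2 to SNRNP70 did not. In CPM, 13% of all rows did not overlap, and no such background was computed for shares or ratios. The 1 of 7 shares and 1 of 5 ratios without overlap are therefore not read as a trait of SNRPD2. SNRPD2 had 2.68, 1.18 and 2.57 counts per SNRNP70 count in SI-labelled libraries, against 3.66, 4.12 and 3.03 in SINC-labelled libraries. Set against its own partner SNRPD1, SNRPD2 had ratios of 2.8, 2.29 and 3.53 in SI-labelled libraries, against 4.04, 3.14 and 3.29 in SINC-labelled libraries, with overlap. SNRPE and SNRPF, partners in the trimer, kept a ratio of 1.31 to 1.68 in SI-labelled libraries, against 1.56 to 1.73 in SINC-labelled libraries, and these ranges overlap.

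**Figure D4:**
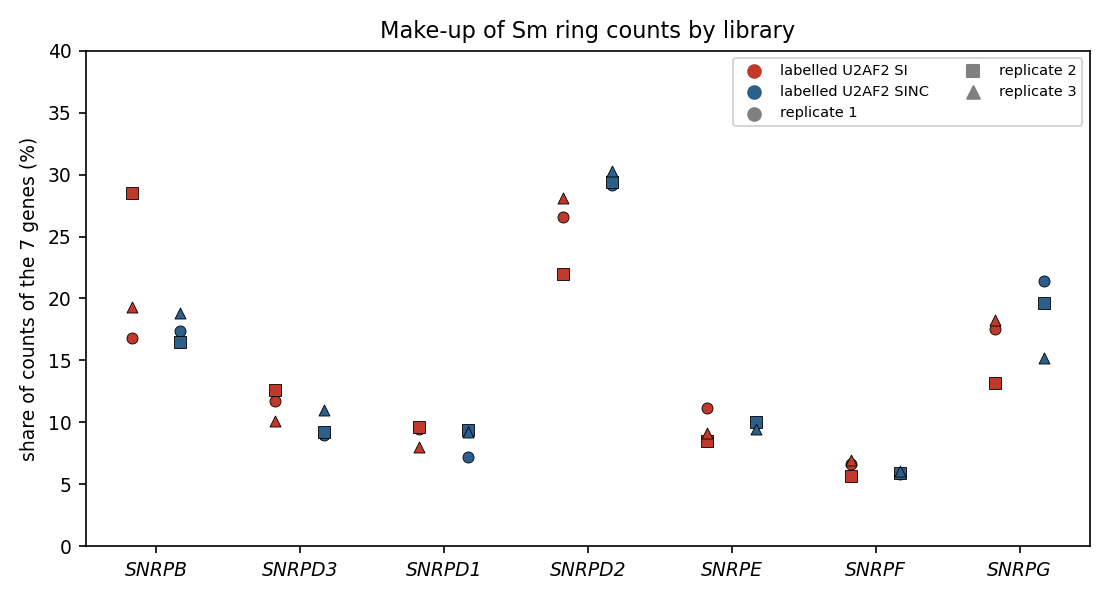
Share of the counts of the 7 Sm ring genes taken by each gene (y axis, percent) in each library. The square of replicate 2 labelled U2AF2 SI stands at 28.5% for SNRPB and at 13.2% for SNRPG, and the 2 groups of SNRPD2 symbols do not overlap.

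Per kilobase of transcript the ring genes were far from equal, though the proteins enter the ring in equal number. SNRPD2 was the highest at 483 ± 163 CPM per kb in SI-labelled and 854 ± 119 CPM per kb in SINC-labelled libraries (SD, n = 3 each). SNRPB followed at 304 ± 61.5 and SNRPG at 256 ± 94.02 CPM per kb in SI-labelled libraries, against 393 ± 40.98 and 454 ± 138 CPM per kb in SINC-labelled libraries, and these 2 neighbours did not differ beyond their spread in either group. That order rests on the 1093 nt transcript of SNRPG: with its principal transcript of 625 nt, SNRPG stood at 447 ± 164 CPM per kb in SI-labelled and 794 ± 241 CPM per kb in SINC-labelled libraries, with means above those of SNRPB and within the spread of SNRPD2. SNRPE was at 171 ± 44.3, SNRPD3 at 107 ± 12.2 and SNRPF at 78.8 ± 25.05 CPM per kb in SI-labelled libraries, against 273 ± 50.4 for SNRPE, 142 ± 7.96 for SNRPD3 and 111 ± 15.04 CPM per kb for SNRPF in SINC-labelled libraries. The lowest, SNRPD1 at 30.4 ± 3.94 CPM per kb in SI-labelled and 45.3 ± 7.69 CPM per kb in SINC-labelled libraries, rests on an annotated length of 4909 nt that may not be the transcript these cells make. GENCODE 29 names 20 pseudogenes after SNRPG, 18 after SNRPC, 9 after SNRPE, 4 after SNRPF, 2 after SNRPD2 and 1 after SNRPB. None of these was analysed here, and the sources used here do not say how reads shared with such copies were counted, so the levels of these genes are uncertain.

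Promoter windows placed at the RefSeq gene start (GRCh38.p14) were found for 7 members. SNRPD1, SNRPE and SNRPG had none. CCGGAAG, one form of the site bound by ETS factors, was searched on both strands of the 250 bases before the start. It lay in 3 of these 7 windows (SNRPB, SNRPD2 and SNRPC), while 8.81% of 24885 windows held it. Shorter forms of the site were not searched. The match of SNRPB lies outside the shorter stretch that ends before its first annotated start. The CCAAT box (CCAAT) lay in 3 of 7 (SNRPD2, SNRPF and SNRPA; 33.4% of all windows), the GC box (GGGCGG) in 5 of 7 (41.7% of all) and the E-box (CACGTG) in 0 of 7 (6.44% of all). Shown are the ring gene with the largest difference among those with a window, a U1 gene that also holds CCGGAAG, and a U1 gene that does not. Each runs 5′ to 3′ on the gene's strand and ends before the first protein-coding start in either annotation. Capitals mark CCGGAAG in either orientation. The 24885 windows were not limited to genes with a row in the count table, so their shares are no background for measured genes. A match of letters is a description of the window and no evidence of binding.
SNRPD2, chr19:45692334-45692566, minus strand: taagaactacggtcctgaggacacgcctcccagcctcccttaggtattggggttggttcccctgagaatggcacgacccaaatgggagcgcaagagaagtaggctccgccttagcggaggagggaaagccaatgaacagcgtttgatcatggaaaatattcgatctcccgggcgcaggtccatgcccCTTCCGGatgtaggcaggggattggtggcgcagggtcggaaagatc
SNRPC, chr6:34757255-34757405, plus strand: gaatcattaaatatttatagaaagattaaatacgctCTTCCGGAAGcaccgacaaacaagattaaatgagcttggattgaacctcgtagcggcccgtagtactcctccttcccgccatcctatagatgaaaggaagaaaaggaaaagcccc
SNRNP70, chr19:49085201-49085422, plus strand: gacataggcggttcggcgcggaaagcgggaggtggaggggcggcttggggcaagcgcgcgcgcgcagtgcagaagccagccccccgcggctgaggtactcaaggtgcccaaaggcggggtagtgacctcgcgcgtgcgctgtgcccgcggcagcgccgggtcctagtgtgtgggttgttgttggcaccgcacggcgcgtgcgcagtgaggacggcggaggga

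The SMN complex, which loads the Sm ring onto small nuclear RNA, was divided in direction. All 10 of its listed genes had a row, 4 below 0 and 6 above 0, with a median log2 fold change of 0.13. At an unadjusted p under 0.05, 1 gene was higher and 2 were lower, where 3.15% of all rows were higher and 4.22% lower. GEMIN5, the subunit that selects small nuclear RNAs, had 66.0, 49.6 and 57.4 CPM in SI-labelled libraries, against 30.4, 32.4 and 42.7 CPM in SINC-labelled libraries, without overlap (log2 fold change 0.71 ± 0.20 SE, edgeR adjusted p = 0.653). GEMIN2, which grips the ring intermediate, was at 31.4 ± 3.44 CPM in SI-labelled and 45.9 ± 8.02 CPM in SINC-labelled libraries (SD, n = 3 each). GEMIN6, which has an Sm-like fold, was at 45.1 ± 4.04 CPM in SI-labelled and 67.4 ± 15.8 CPM in SINC-labelled libraries (SD, n = 3 each). SMN1 and SMN2 are near-identical copies whose counts cannot be told apart with confidence, and their log2 fold changes were 0.07 and 0.24. The 4 genes of the methylosome, which methylates SmB, SmD1 and SmD3, had a median of 0.03, with PRMT5 at 414 ± 42.4 CPM in SI-labelled and 393 ± 10.9 CPM in SINC-labelled libraries (SD, n = 3 each). Its other members named by rule were RIOK1 at a log2 fold change of 0.40 and CLNS1A, the chaperone pICln, at -0.22. The 7 genes for cap binding, export, cap hypermethylation and import of small nuclear RNAs had a median of 0.26, with 0 at an unadjusted p under 0.05. Those with the smallest p were KPNB1, TGS1 and NCBP1 at 0.36, 0.44 and 0.29.

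Among other snRNP proteins, the LSm genes lay lower in SI-labelled libraries. LSm proteins form related rings, one of which binds U6 RNA. Of 10 LSm genes, 9 lay below 0 and 7 had an unadjusted p under 0.05, all lower, with a median of -0.56. Of all rows, 45.7% lay below 0 and 4.22% were lower at that p. LSM3 had 103, 93.2 and 111 CPM in SI-labelled libraries, against 159, 174 and 132 CPM in SINC-labelled libraries, without overlap. LSM7 and LSM8 had log2 fold changes of -0.71 ± 0.22 and -0.67 ± 0.22 (SE), and both overlapped between the groups. The 12 genes of U2 snRNP with SF3A and SF3B divided evenly, 6 below and 6 above 0. SF3B6 and PHF5A, small subunits of SF3B, were at -0.63 and -0.64, whereas SF3A1 was at 0.44. The 16 genes of U5 snRNP and the tri-snRNP had a median of 0.11, and the 3 at an unadjusted p under 0.05 were all higher, as were 3.15% of all rows. PRPF8, the large protein at the centre of the spliceosome, was at 409 ± 21.0 CPM in SI-labelled and 274 ± 38.2 CPM in SINC-labelled libraries (SD, n = 3 each), and PRPF4 and SNRNP200 stood at 0.40 and 0.45. The longest annotated protein-coding transcripts had median lengths of 1154 nt for the Sm ring and 2083 nt for LSm. The medians were 2268.5 nt for U2 with SF3A and SF3B, and 3128 nt for U5 and the tri-snRNP. These may not be the transcripts that the cells make. No gene of these lists passed over all rows in edgeR.

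Of 7 measured genes for the U11 and U12 snRNPs of the minor spliceosome, SNRNP25 was at a log2 fold change of -0.55, PDCD7 at 0.49 and ZMAT5 at -0.33, with a list median of -0.25. RNPC3 was not analysed here. The 7 proteins that associate with U1 snRNP had a median of -0.03, and 0 had an unadjusted p under 0.05. LUC7L, RBM25 and LUC7L2 were at -0.32, 0.37 and 0.18. Both lists had members on either side of 0.

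**Figure D5:**
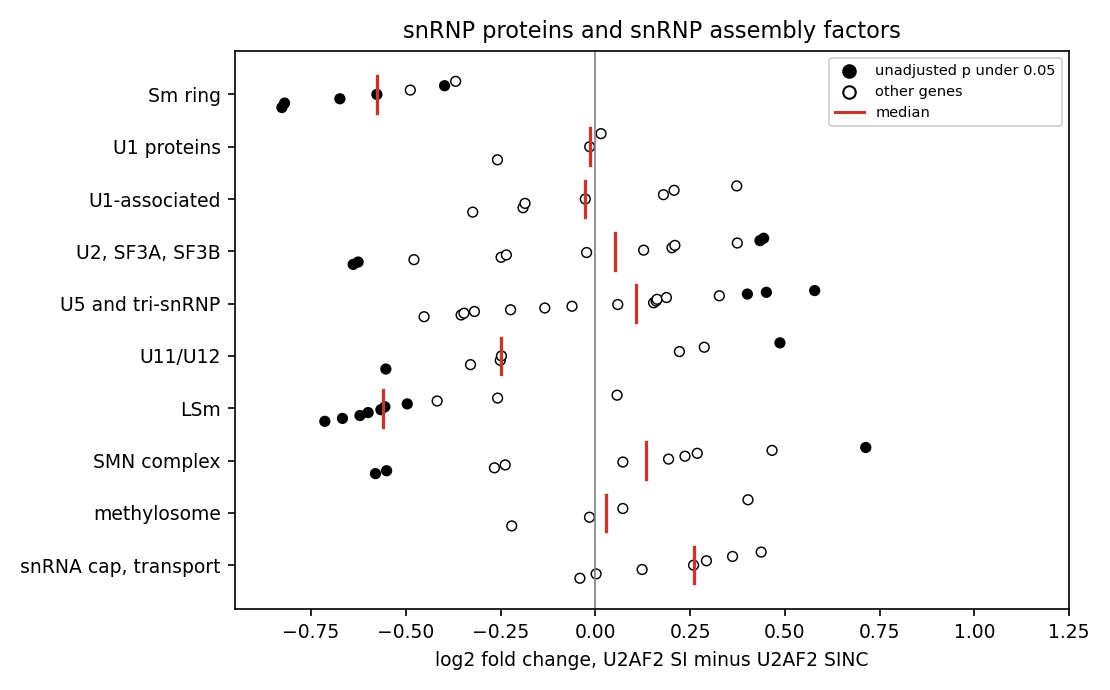
Log2 fold change (x axis, SI-labelled minus SINC-labelled) of each measured gene of 10 lists of snRNP proteins and assembly factors. Filled circles have an unadjusted p under 0.05 in edgeR and red bars are list medians, which lie at -0.58 for the Sm ring, -0.56 for LSm and -0.01 for U1.

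The 6 rows whose levels over the 6 libraries were most like the mean of the ring genes were RPL41, SEC61G, BRK1, DBI, S100A13 and RPS21, among 7621 other rows with a mean of at least 10 CPM. Their Pearson r with that mean ran from 0.9971 to 0.9986, as a description over libraries that share their grouping and depth. Their annotated transcripts were 686 to 1233 nt long, and their log2 fold changes ran from -0.77 to -0.50.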

How the data were processed

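Read counts per gene or assembled locus were deposited by the authors for 6 libraries as whole numbers, in columns headed as counts. The column headers name no normalization. Poly(A) enrichment and dUTP strand marking are given in the labels' protocols. The submitters' processing notes name CASAVA and StringTie. The aligner, the build and the gene annotation were not given in the sources used here. Columns were tied to libraries by the sample descriptions, with 0 columns that matched no sample. The smallest mean count of a row was 31. Libraries of a group differed beyond sampling noise (chi-square of 56 or more per degree of freedom).

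The main test was the quasi-likelihood test of edgeR 4.0.16 under R 4.3.3 (TMM, filterByExpr, glmQLFit, glmQLFTest) on all 11957 rows with group as the only term. The p-values were adjusted by the Benjamini-Hochberg method over all rows with a threshold of 0.05. Standard errors came from the quasi-likelihood F statistic. Log2 CPM used a prior count of 2. Alternatives used DESeq2 1.42.0, limma 3.58.1 (voom), other scalings and filters, a replicate block, the omission of each library, and removal of a loess trend (span 0.3) on GC content and length of transcripts, known for 94.7% of rows. Since PCR copies carried no molecular identifiers, reads are not separate molecules.

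The members and lists were chosen with earlier results of these data known. Named genes are the members, U2AF2 and U2AF1, up to 3 genes with the smallest p of each related list, and the 6 rows most like the ring. The other genes of the lists that are given with values were chosen after their values were seen. The 5 endothelial markers were not analysed here. CD68, of 6 leukocyte markers, and COL1A1 and COL1A2, of 6 fibroblast markers, were measured. Their summed levels were 49.3 to 53.5 CPM in SI-labelled and 48.2 to 56.3 CPM in SINC-labelled libraries for CD68, and 3.79 to 4.32 CPM in SI-labelled and 2.74 to 4.15 CPM in SINC-labelled libraries for the 2 collagens.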

Additional observations from a re-analysis of the deposited data

How the results depend on the processing

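The negative direction of the 7 Sm ring genes held under every alternative run. The number of rows past the threshold was 1 in edgeR, 0 under upper-quartile scaling, with library size alone, with rows kept from 5 CPM upward, and with the length and GC trend removed, 61 in DESeq2 and 4 in DESeq2 without independent filtering, and 0 to 2 with 1 library left out. SNRPD2 passed in DESeq2 at a log2 fold change of -0.84. The number of members at an unadjusted p under 0.05 was 5, beside 7.37% of all rows. It was 1 with the trend removed and 2 with the trend taken on principal transcripts, beside 7.59% and 7.47% of all rows. The fit on principal transcripts was chosen after seeing the data, as was DESeq2 without filtering. With 1 library left out it was 2 to 6 members, beside 3.21% to 14.4% of all rows. The ring median ran from -0.75 to -0.43 and the U1 median from -0.13 to 0.10 over those omissions. Library size alone moved the median of all rows to 0.22; there the ring median was -0.39, the U1 median 0.16 and SNRNP70 0.16. SNRPA turned to -2.23e-04 with RLE scaling and -2.85e-04 in both DESeq2 fits, and ran from -0.10 to 0.10 over the omissions. SNRNP70 was 0.16 with the trend removed and 0.14 on principal transcripts, and ran from -0.13 to 0.14. SNRPC was 0.033 and 0.13 in those 2 trend fits. The causes of these changes were not tested. Between libraries of the same replicate number, deviations from the group means correlated at -0.0895, 0.25 and -0.311 for the 3 numbers. Replicate 2 labelled SI had its best match in the SINC-labelled library of the same number, and replicates 1 and 3 did not. With 3 libraries in each group, these values cannot decide whether libraries were paired. With the replicate number as a block, 2 rows passed and the ring median was -0.57. In that fit 4 members had an unadjusted p under 0.05, beside 4.58% of all rows.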
